A study of Homo sapiens with 3 samples.

Results

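The genes described here encode receptors for glutamate, GABA, glycine, acetylcholine, serotonin and dopamine. They were chosen by gene symbol alone, through the family names GRIA, GRIK, GRIN, GRID, GRM, GABR, GABBR, GLRA, GLRB, CHRN, CHRM, HTR and DRD, and number 95 of the 27307 genes in the deposited tables. The study sequenced polyadenylated RNA from 3 teratoma libraries of H1 human embryonic stem cells, an established cell line. Teratomas are benign growths that hold many tissue types, formed as pluripotent cells mature in a host. Per the labels, each graft of 1000000 cells went under the skin of SCID-beige mice, a strain that lacks lymphocytes but keeps other host cells such as vessels and macrophages, and tumours were collected at 3 to 4 weeks. These libraries, named teratomas 1, 2 and 3 here, form 1 group with no comparison group, so levels and their spread are described and no contrast between conditions exists. Whether separate tumours or animals stand behind them is not stated in the labels. In bulk tissue, fewer cells of a type and less RNA per cell cannot be told apart.

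Fast synaptic transmission runs through ion channels that open when a transmitter binds. AMPA, kainate and NMDA receptors are glutamate-gated cation channels, each assembled from several subunits. GABA-A, glycine, nicotinic and serotonin HTR3 receptors belong to a second channel family, the Cys-loop receptors, of which the GABA-A and glycine receptors pass chloride. Metabotropic glutamate, GABA-B, muscarinic, dopamine and most serotonin receptors act more slowly through G proteins. Subunit makeup sets a channel's speed, calcium entry and drug response, and it changes as neurons mature.

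Levels are RPKM as the authors gave them (reads per kilobase and per 1000000 reads) and can be set side by side between genes because they are per length. The totals behind RPKM, recovered from the deposited values, were 46243199, 45815401 and 43605459 reads, and a gene of 2500 bases at 1 RPKM has 116, 115 and 109 reads. Teratoma 3 stood apart in neuronal RNA: 15 neuron markers summed to 903, 1147 and 3045 RPKM, led by TUBB3 (435, 510 and 1216). All 15 were highest in teratoma 3. Reads of host mouse cells that align to the human genome may be part of every value, since their removal is not given in the sources used here.

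Receptor genes reached 1 RPKM in all 3 libraries less often than all genes did, but very low levels were about as common. At least 1 RPKM in all 3 libraries, called detected below, was reached by 34 of the 95 receptor genes, against 52.7% of all 27307 genes. At 0.1 RPKM the share was near that of all genes, with 70 of the 95 reaching it in all 3 libraries, against 68.5%. At 0.5 RPKM 50 of the 95 did so, against 58.6%. Of the 95, 39 stayed under 1 RPKM in every library, close to the 39.5% of all genes. Of the 95, 5 averaged over 10 RPKM. For comparison, 76.3% of all genes averaged under 9.74 RPKM and 82.3% under 13.4 RPKM. Among the 5 were GABBR1, the agonist-binding GABA-B subunit (25.9 ± 16.8 RPKM, SD, n = 3), GRIK5 of kainate receptors (20.04 ± 9.59), and GRIN2D (13.8 ± 9.25) and GRIN1 (13.4 ± 12.9) of NMDA receptors. The order of these differed between libraries, with GRIK5 highest in teratoma 1 and GABBR1 in teratomas 2 and 3. No read at all was listed for HTR3C and HTR3E, where 3 reads would have given 0.0382 and 0.0303 RPKM in teratoma 1.

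**Figure D1:**
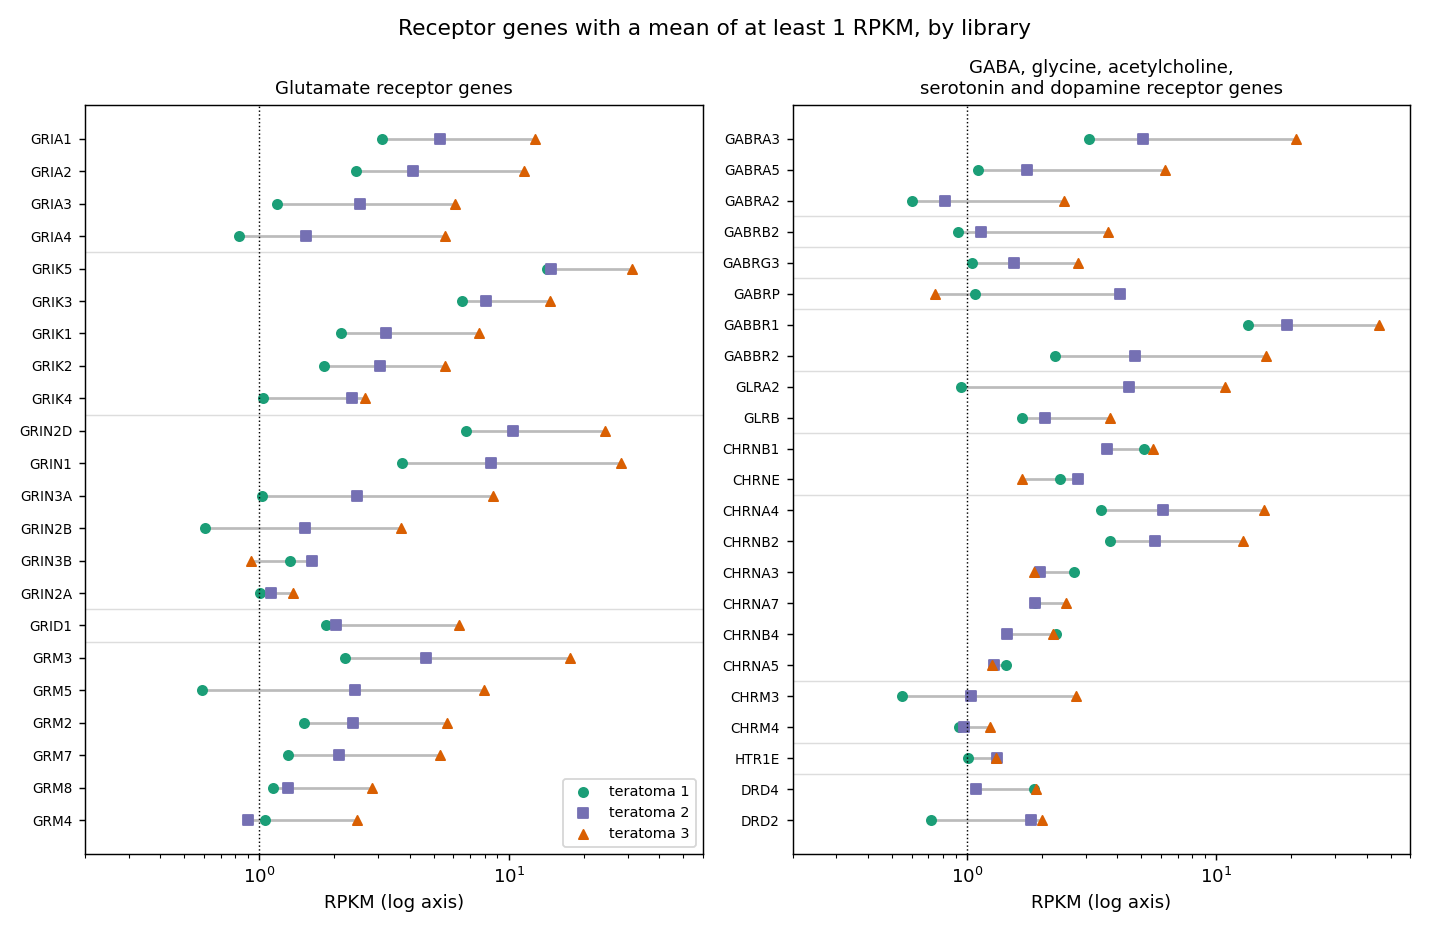
RPKM of 45 of the 49 receptor genes that averaged 1 RPKM or more, on a log axis, with 1 symbol per library, a grey line over the range and a dotted line at 1 RPKM. For 42 of all 49 (against 39.9% of all genes at that level) the highest value is that of teratoma 3, while GRIN3B, GABRP, CHRNE, CHRNA3, CHRNB4, CHRNA5 and HTR1E peak in teratoma 1 or 2.

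Teratoma 3 had the highest level of most receptor genes. This held for 72 of the 93 receptor genes with any reads, against 37.5% of all genes with reads. For 62 of them the 95% exact Poisson intervals of the highest and lowest library also lay apart, against 25.9% of all genes. Teratoma 3 was highest and teratoma 1 lowest for 57 of the 93, against 24.9% of all genes. The remaining 21 genes were highest in teratoma 2 (12 genes) or teratoma 1 (9 genes). A gap of 2 or more between highest and lowest library on the log2(RPKM + 1) scale was found for 8 receptor genes of 95, against 1.52% of all genes. Among these 8 were GRIN1, GRIN3A, GRM3, GRM5, GABRA3, GABBR2 and GLRA2. A difference of at least 1 was found for 33 of the 95, against 12.1% of all genes. Without teratoma 3, and likewise without teratoma 1, 0 of the 95 differed by 2 between the other libraries, against 0.205% of all genes without teratoma 3 and 0.476% without teratoma 1.

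The neuron markers were also highest in teratoma 3, and the receptor genes covered a wider range of ratios. For the 15 neuron markers the level in teratoma 3 was between 2.32 and 3.79 times the mean of teratomas 1 and 2. The median ratio was 2.83 over the 49 receptor genes that averaged at least 1 RPKM, 3.22 over the neuron markers and 0.952 over all genes at that level. A high value in 1 library can carry a gene past that level, so the 49 are a description. They are also more numerous than the 15 markers and mostly lower in level, which by itself can widen a range. Of the 49, 18 lay within the range of the neuron markers and 20 below it, with no such count made over all genes. The 11 above it included GRM5 (5.30 times), GABRA3 (5.12), GRM3 (5.10), GRIN3A (4.98), GRIA4 (4.70), GRIN1 (4.60), GABBR2 (4.55), GABRA5 (4.38) and GLRA2 (4.01). After each library was divided by its neuron marker mean, 21 of 93 receptor genes were highest in teratoma 3, against 3.84% of all genes. Then 37 were highest in teratoma 1 and 35 in teratoma 2, and a difference of at least 2 was found for GABRP alone, against 18% of all genes. The factors were 0.490, 0.677 and 1.83 for teratomas 1, 2 and 3. A gene that is level across libraries therefore becomes lowest in teratoma 3 after the division. The shares of all genes follow largely from that, so they are no yardstick for the receptor genes here. How far the number of neurons accounts for the receptor levels was not tested.

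**Figure D2:**
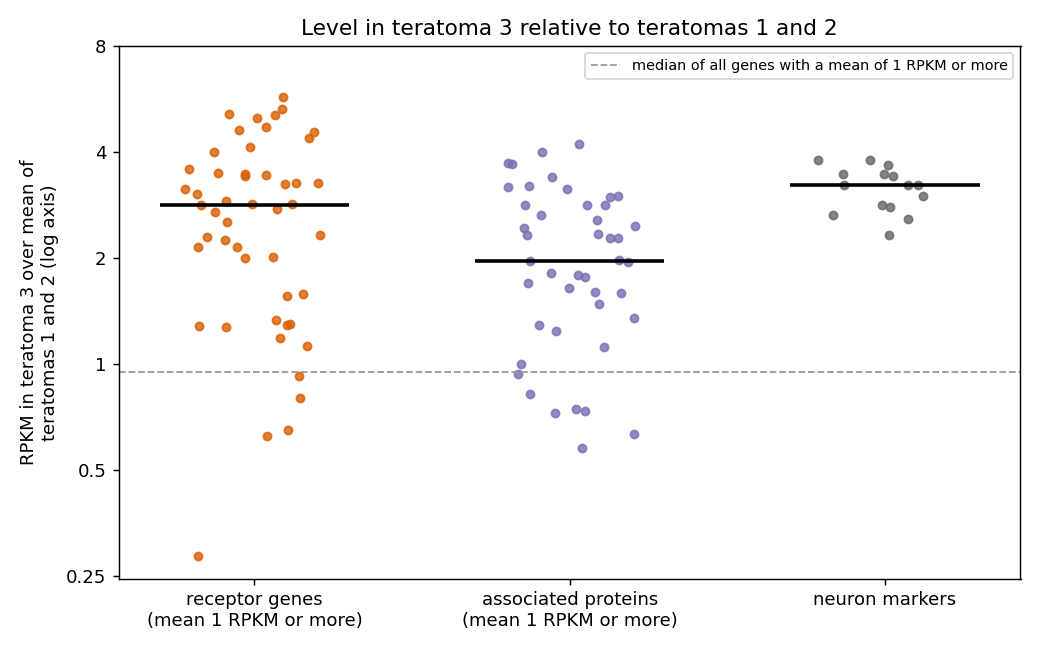
RPKM in teratoma 3 divided by the mean of teratomas 1 and 2 (log axis) for receptor genes and associated proteins averaging 1 RPKM or more and for 15 neuron markers, 1 point per gene, with the group median as a black bar. The receptor genes start at 0.285 (GABRP) and reach past 5.30 (GRM5), wider than the neuron markers at 2.32 to 3.79, and the dashed line is the median of all genes at 0.952.

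AMPA receptors carry most fast excitation in the brain, and all 4 of their subunit genes were present in similar proportions in each library. GRIA1 stood at 3.09, 5.28 and 12.7 RPKM in teratomas 1, 2 and 3. GRIA2, whose edited subunit makes the channel impermeable to calcium, stood at 2.44, 4.15 and 11.5. For both genes teratoma 3 was far above the other libraries. GRIA3 averaged 3.27 ± 2.53 and GRIA4 2.65 ± 2.56, with GRIA4 under 1 RPKM in teratoma 1. Although the summed level differed widely (7.53, 13.5 and 35.9 RPKM), shares within the class differed less. GRIA1 made up 38.5% ± 2.81, GRIA2 31.7% ± 0.853, GRIA3 17.1% ± 1.60 and GRIA4 12.6% ± 2.51 (SD, n = 3). These shares depend on the entry kept for each gene. With the RPKM of all entries of a gene summed, where a read can count several times, GRIA1 (8 entries, against 3 to 5 for the other AMPA genes) made up 60.5%.

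Kainate receptors, which tune transmitter release and excitability, had all 5 of their genes detected (against 52.7% of all genes). GRIK5, a high-affinity subunit that needs a partner to form a channel, stood at 14.3, 14.7 and 31.1 RPKM, so that teratomas 1 and 2 were nearly level. GRIK3 stood at 6.49, 8.13 and 14.6. GRIK1 averaged 4.32 ± 2.89, GRIK2 3.47 ± 1.91 and GRIK4, the other high-affinity subunit, 2.01 ± 0.858. GRIK5 held 50.9% ± 4.32 of the kainate sum and GRIK3 24.9% ± 1.08. The delta receptor gene GRID1, whose product acts as a synaptic organiser, averaged 3.40 ± 2.53 RPKM and was detected.

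NMDA receptors need the obligatory subunit encoded by GRIN1 together with GRIN2 or GRIN3 subunits. GRIN1 stood at 3.72, 8.49 and 28.1 RPKM, and the 3 libraries lay well apart. GRIN2D, the subunit of slow NMDA channels typical of embryonic brainstem and interneurons in rodents, stood at 6.74, 10.4 and 24.3. It made up 80.2% ± 1.84 of the summed GRIN2 level, and its share differed little between libraries, though with entries summed it was 68.2%. GRIN2B, the other early subunit, stood at 0.604, 1.52 and 3.69 and made up 10.4% ± 2.86. GRIN2A, which in rodents takes over after birth, stood at 1.00, 1.11 and 1.36, nearly level across libraries, and made up 8.28% ± 3.61. GRIN3A, a subunit that lowers calcium entry in young neurons, stood at 1.02, 2.46 and 8.68. GRIN3B averaged 1.29 ± 0.355 and was lowest in teratoma 3. GRIN3B shares 85 bases of an exon with the opposite-strand gene TMEM259, which stood at 86.0, 83.3 and 67.3 RPKM, and without strand information their reads cannot be told apart.

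**Figure D3:**
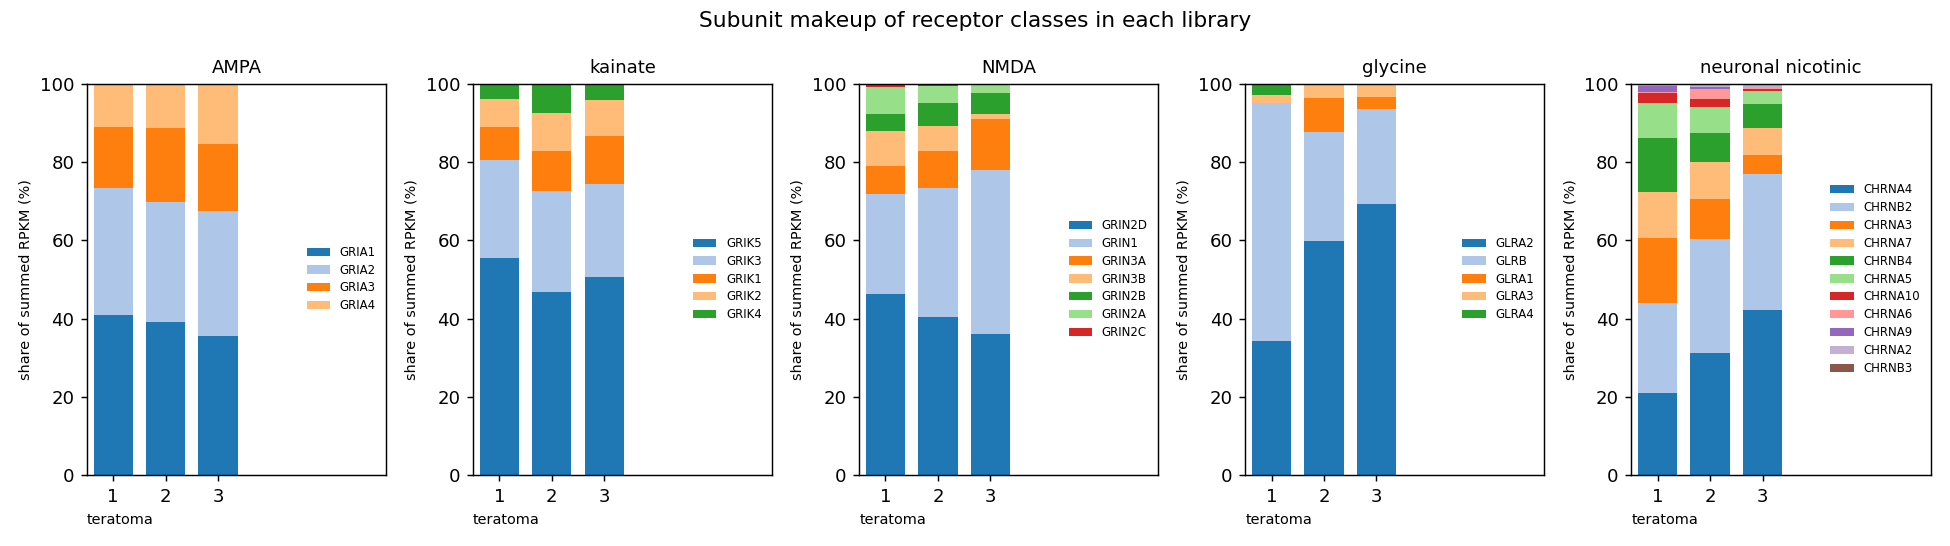
Share of each subunit in the summed RPKM of its receptor class (percent, stacked bars from 0 to 100) in teratomas 1, 2 and 3. AMPA and kainate classes look alike in all libraries, with GRIA1 at 38.5% ± 2.81 of the AMPA sum, whereas GRIN1, GLRA2 and CHRNA4 take a larger share in teratoma 3 than in teratoma 1.

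Metabotropic glutamate receptors were led by GRM3, a group II receptor of neurons and glia, at 2.20, 4.67 and 17.5 RPKM. GRM5, a group I receptor coupled to calcium release, stood at 0.589, 2.41 and 7.94. Both were highest in teratoma 3 and lowest in teratoma 1. An exon of GRM5 overlaps the antisense gene GRM5-AS1 by 4364 bases, and GRM5-AS1 stood at 0.480, 2.32 and 7.49, so the 2 genes cannot be separated here. The presynaptic receptors GRM2 (3.18 ± 2.19), GRM7 (2.90 ± 2.13), GRM8 (1.76 ± 0.933) and GRM4 (1.48 ± 0.865) followed. GRM6, the receptor of retinal ON bipolar cells, had 21, 13 and 23 reads, or 0.0687 ± 0.0204 RPKM. All 8 genes were highest in teratoma 3.

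GABA-A receptors are usually built from alpha, beta and gamma subunits. Among alpha genes GABRA3 led with 3.09, 5.09 and 20.9 RPKM, followed by GABRA5 with 1.11, 1.74 and 6.24. GABRA3 made up 60.4% ± 3.72 of the alpha sum and GABRA5 20.04% ± 0.716. With entries summed GABRA3, which has 1 entry, made up 33.4%. GABRA2 (1.29 ± 1.01) was under 1 RPKM in teratomas 1 and 2. GABRA4 averaged 0.158 ± 0.0572. GABRA6, which is typical of cerebellar granule cells in the adult, had 0, 2 and 7 reads. Of the beta genes, GABRB2 averaged 1.91 ± 1.53 and GABRB1 0.531 ± 0.511.

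Of the gamma genes, GABRG3 stood at 1.05, 1.55 and 2.78 RPKM, lowest in teratoma 1 and highest in teratoma 3. GABRG1 averaged 0.406 ± 0.450. The delta, epsilon and theta genes GABRD (0.843 ± 0.235), GABRE (0.752 ± 0.0428) and GABRQ (0.675 ± 0.184) differed by at most 0.35 between libraries on the log2(RPKM + 1) scale. GABRP, the pi subunit found mainly outside the brain, stood at 1.07, 4.13 and 0.742, and was the lowest relative to the other libraries in teratoma 3 of all 49 genes above 1 RPKM. Retinal rho genes were near the limit, with GABRR1 at 0.228 ± 0.123, GABRR2 at 0.0340 ± 0.0158 and GABRR3 on a single read in teratoma 3.

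Most GABA-A genes lie in clusters, as their neighbours in RefSeq show, and levels differed within them. On chromosome X GABRA3 averaged 9.71 RPKM beside GABRE at 0.752 and its direct neighbour GABRQ at 0.675. On chromosome 15 GABRA5 averaged 3.03 RPKM and its neighbour GABRG3 1.79. The chromosome 4 cluster had low levels throughout, with GABRA2 at 1.29, GABRB1 at 0.531, GABRG1 at 0.406 and GABRA4 at 0.158 RPKM. Each of these 9 genes was highest in teratoma 3, against 37.5% of all genes with reads. GABRE was nearly level, at 105, 106 and 110 reads.

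GABA-B receptors work as a dimer of GABBR1 and GABBR2. GABBR1 stood at 13.3, 19.2 and 45.0 RPKM and GABBR2, the G-protein-coupling partner, at 2.25, 4.72 and 15.9. GABBR1 made up 79.9% ± 5.83 of the class. Its entry has 7 listed genome placements and shares 722 bases of an exon with UBD, which stood at 8.61, 4.48 and 1.18 RPKM, so some of its reads are uncertain.

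Glycine receptors combine alpha subunits with the beta subunit GLRB. GLRA2, the fetal alpha subunit, stood at 0.946, 4.45 and 10.8 RPKM, with the libraries well apart. GLRB, which ties the receptor to gephyrin, stood at 1.67, 2.06 and 3.75. GLRA2 held 34.4%, 59.9% and 69.4% of the class in teratomas 1, 2 and 3. The adult subunit GLRA1 was at 0, 50 and 35 reads and GLRA3 at 10, 43 and 82. GLRA4 had at most 6 reads in any library.

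Neuronal nicotinic receptors were led by CHRNA4 and CHRNB2, the subunits of the commonest brain type. CHRNA4 stood at 3.44, 6.12 and 15.6 RPKM and CHRNB2 at 3.74, 5.68 and 12.8, both highest in teratoma 3. The genes of the ganglionic type, which neighbour one another on chromosome 15, did not share this order. CHRNA3 stood at 2.70, 1.97 and 1.86 RPKM, CHRNB4 at 2.28, 1.45 and 2.21, and CHRNA5 at 1.44, 1.29 and 1.26. All 3 had their highest value in teratoma 1, as did 8680 of the 23285 genes with reads. Teratomas 1 and 3 were close in reads for CHRNB4 (258 and 236). The exact Poisson intervals of the highest and lowest library lay apart for CHRNA3 and CHRNB4. They did not for CHRNA5, at 241, 214 and 199 reads. CHRNA3 and CHRNA5 share 100 bases of exon on opposite strands. CHRNA7 averaged 2.08 ± 0.362, on an entry listed as non-coding, and its partial copy CHRFAM7A, at 1.63, 1.41 and 1.89 RPKM, may share its reads. The other 5 neuronal nicotinic genes averaged under 0.32 RPKM, led by CHRNA10 (0.313 ± 0.119).

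The muscle nicotinic receptor of the neuromuscular junction combines CHRNA1, CHRNB1 and CHRND with CHRNG before birth or CHRNE after it. CHRNB1 stood at 5.13, 3.64 and 5.57 RPKM, with CHRNA1 at 0.589, 0.364 and 0.695, CHRND at 0.538, 0.222 and 0.579 and CHRNG at 0.148, 0.0299 and 0.231. These 4 genes were highest in teratoma 3 and lowest in teratoma 2. That order was found in 12.6% of all genes and in 8 of 10 skeletal muscle markers. Teratomas 3 and 1 were close in reads for CHRNB1 (592 and 578), CHRNA1 (60 and 54) and CHRND (67 and 66). CHRNG had 22 and 15. Among the muscle markers the myogenic factor MYOG stood at 1.65, 0.114 and 3.55 and the embryonic myosin MYH3 at 1.42, 0.412 and 2.87. ACTA1 was nearly level, at 6.44, 6.23 and 6.72, while DES (4.85, 10.3 and 4.49) and TNNT3 (1.06, 1.48 and 1.67) had other orders. The summed marker level was 19.7, 20.5 and 26.5 RPKM. The part of muscle cells in the levels of the 4 genes was not tested. CHRNE departed from their order, at 2.36, 2.78 and 1.67. Its exons overlap MINK1 (15.7, 15.8 and 11.3 RPKM), C17orf107 and GP1BA on the opposite strand, so the CHRNE reads may in part be theirs.

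Muscarinic receptors were low. CHRM3, coupled to calcium release, stood at 0.550, 1.04 and 2.73 RPKM, CHRM4 at 0.928, 0.973 and 1.24, and CHRM2, the receptor of the heart, at 0.353, 0.768 and 1.48. CHRM1, the main cortical type in adults, averaged 0.221 ± 0.0699 and CHRM5 0.119 ± 0.120. None of the 5 was detected in all 3 libraries, against 52.7% of all genes. Of 5 markers of cholinergic neurons, the enzyme CHAT stood at 0, 0.0723 and 0.239 RPKM, and the transporters SLC18A3 at 0.804, 1.53 and 3.53 and SLC5A7 at 0.134, 0.156 and 0.439. The transcription factors ISL1, at 8.14, 6.09 and 9.02, and MNX1, at 17.0, 13.3 and 3.45, were detected.

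Serotonin receptors were the least expressed large family, with 1 of 17 genes detected (against 52.7% of all genes). Of the 17, 14 were under 1 RPKM in every library (against 39.5%). The detected gene was HTR1E, an inhibitory receptor, at 1.01, 1.32 and 1.31 RPKM. HTR1B, a presynaptic autoreceptor, stood at 0.368, 0.791 and 1.56. HTR2C, a receptor abundant in choroid plexus, had 7, 51 and 135 reads. The summed level of 6 choroid plexus markers was 96.9, 209 and 31.8 RPKM, led by TTR (73.0, 175 and 23.5). Of the 6, 2 were highest in teratoma 1 and 4 in teratoma 2. The part of choroid plexus cells in the HTR2C level was not tested. The channel subunit HTR3A stood at 0.867, 0.230 and 1.22 and HTR3B at 0.118 ± 0.0566, and HTR3D had 2, 0 and 0 reads. HTR5A had a wide relative spread, with 2, 47 and 152 reads, or 0.00949, 0.225 and 0.765 RPKM. An exon of HTR5A overlaps the antisense gene HTR5A-AS1 by 524 bases. HTR5A-AS1 stood at 0.0160, 0.105 and 0.246 RPKM, so some reads may belong to either gene. HTR2A, HTR4, HTR6, HTR7, HTR1A, HTR1D, HTR1F and HTR2B averaged between 0.0223 and 0.538 RPKM.

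Dopamine receptors averaged at most 1.61 RPKM. DRD4 stood at 1.86, 1.09 and 1.89 RPKM, and was the 1 detected gene of 5, against 52.7% of all genes. DRD2, the receptor blocked by antipsychotic drugs, stood at 0.720, 1.81 and 2.00, and DRD1 at 1.05, 0.550 and 0.476. DRD1 was thus highest in teratoma 1 and DRD2 in teratoma 3. DRD5 had 28, 12 and 15 reads and DRD3 a single read in all.

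Many neuronal receptor genes carry the RE1 element, the binding site of REST, a repressor that keeps neuronal genes silent in other cells. A core of that element, AGCACC followed after any 2 bases by GGACA, was chosen with levels known and searched on both strands in RefSeq promoter windows that run from 250 bases before to 50 after a listed start (GRCh38.p14). The core is present in 25 of 35116 windows (0.0712%) and in 4 of the 100 windows found for 72 of the receptor genes. HTR5A is the sole gene with 3 copies in a window, and they begin 241, 191 and 126 bases before the start. The 4 stretches are printed with the core in capitals, because receptor genes of unlike level share these letters. They lie at chr7:155070074-155070223 (plus strand) for HTR5A, chr4:157220369-157220428 (plus strand) for GRIA2, chr11:637263-637290 (plus strand) for DRD4 and chr3:114178937-114178996 (minus strand) for DRD3. In GRIA2 and DRD4 the core reads on the opposite strand.
HTR5A: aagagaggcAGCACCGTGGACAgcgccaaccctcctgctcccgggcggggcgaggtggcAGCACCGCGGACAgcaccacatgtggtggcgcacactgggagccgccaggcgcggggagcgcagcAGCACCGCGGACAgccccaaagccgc
GRIA2: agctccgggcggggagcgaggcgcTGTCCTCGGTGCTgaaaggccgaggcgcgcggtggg
DRD4: cccggcgtTGTCCGCGGTGCTcagcgcc
DRD3: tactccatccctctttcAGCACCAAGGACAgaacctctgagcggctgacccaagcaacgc
Levels of the 4 genes differed widely. GRIA2 averaged 6.03 ± 4.81 RPKM and HTR5A, with the antisense overlap given above, 0.333 ± 0.389. Both were lowest in teratoma 1 and highest in teratoma 3. DRD4 averaged 1.61 ± 0.452, lowest in teratoma 2 and highest in teratoma 3, and DRD3 had 1 read. A match of letters is a description and not a bound site.

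Early and later expressed subunits were then compared within each library, in 8 pairs known mainly from rodent development, of which 5 are given here. Values are differences of log2(RPKM + 1), early minus later subunit, as mean ± SD (n = 3). The early subunit was higher in 3 of 3 libraries for GRIN2D over GRIN2C (3.50 ± 0.85) and GLRA2 over GLRA1 (1.89 ± 1.03). The later subunit was higher in 3 of 3 for CHRNG minus CHRNE (-1.51 ± 0.38), where CHRNE has the overlaps given above. The size of these 3 differences depends on the pseudocount: with 0.1 RPKM in place of 1 they were 5.57 for GRIN2D over GRIN2C, 3.40 for GLRA2 over GLRA1 and -3.40 for CHRNG minus CHRNE, in the same directions. For each of the 3 the exact sign-flip test (two-sided) gave p = 0.25, the lowest value possible with 3 libraries. Adjusted over 8 pairs (Benjamini-Hochberg), that exact p became 0.4, and no pair passed the threshold. GRIN3A minus GRIN3B (0.84 ± 1.33) and GRIN2B minus GRIN2A (0.31 ± 0.66) did not keep 1 sign, with exact p of 0.5 and 0.75 and adjusted p of 0.571 and 0.75. For GRIN3A and GRIN2B the sign was negative in teratoma 1, at -0.21 and -0.32, and positive in the other libraries. The mean of GRIN3A minus GRIN3B was 0.095 without teratoma 3 and 1.36 without teratoma 1.

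**Figure D4:**
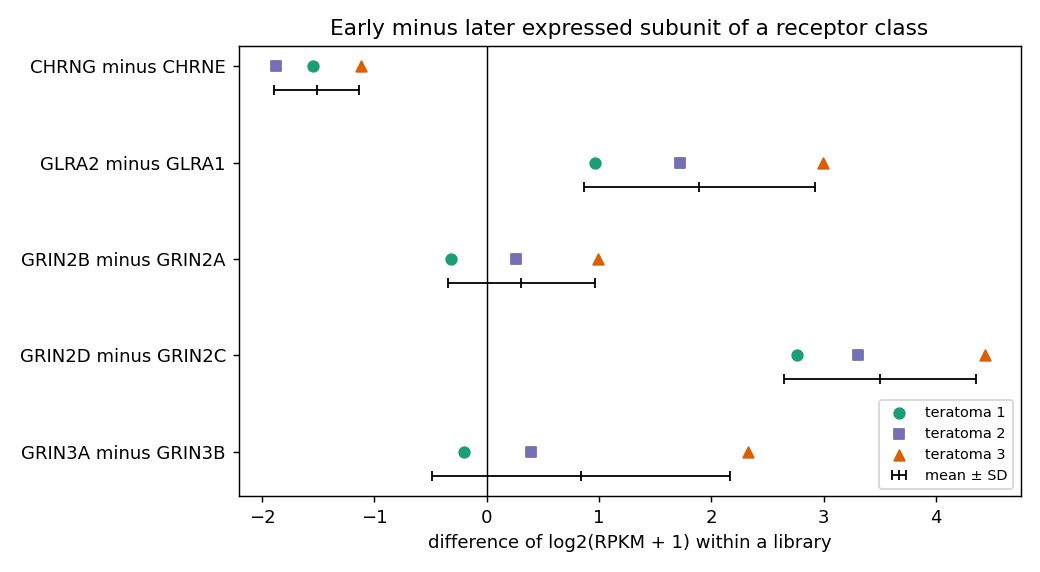
Difference of log2(RPKM + 1) between the early and the later expressed subunit of 5 pairs, 1 symbol per library, with the mean ± SD below the symbols and 0 as no difference. GRIN2D over GRIN2C (3.50 ± 0.85) and GLRA2 over GLRA1 (1.89 ± 1.03) lie to the right of 0 in every library, CHRNG minus CHRNE (-1.51 ± 0.38) to the left.

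Proteins that hold, traffic or modify these receptors were mostly present. Of 50 measured genes, 40 were detected (against 52.7% of all genes), 41 were highest in teratoma 3 (against 37.5%) and 3 differed by at least 2 (against 1.52%). Among 14 auxiliary subunits of glutamate receptors, which set AMPA and kainate receptor trafficking and gating, all 14 were highest in teratoma 3. They were led by CNIH2 (64.2 ± 35.9 RPKM), CACNG4 (60.1 ± 25.3) and CACNG7 (34.2 ± 25.1). CACNG2, or stargazin, stood at 1.28, 2.77 and 8.51 and was one of the genes that differed by at least 2. Glutamate receptor scaffolds were detected in 13 of 14 cases, led by DLG4, the postsynaptic density protein PSD-95 (33.0 ± 19.6), HOMER3 (31.9 ± 6.39) and PICK1 (12.5 ± 1.11). The cerebellins CBLN1 (10.6 ± 8.31) and CBLN2 (10.6 ± 8.71), secreted ligands of delta receptors, and CBLN4 (2.41 ± 1.38) were detected, and CBLN3 (0.785 ± 0.366) was not.

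On the inhibitory side all 5 scaffold genes were detected (against 52.7% of all genes). GABARAP, a trafficking protein also used in autophagy, stood at 164 ± 9.45 RPKM and the adhesion protein NLGN2 at 40.3 ± 12.3. LHFPL4, which links GABA-A receptors to NLGN2, stood at 4.30, 7.93 and 24.5, differing by at least 2 as did TMEM35A, a chaperone of nicotinic receptors (10.8, 17.4 and 52.4). The GABA-B auxiliary genes were led by KCTD12 (34.6 ± 9.68), followed by KCTD8 (2.23 ± 1.21) and KCTD16 (1.34 ± 0.417). Among the other nicotinic chaperones and modulators LYPD1 averaged 23.9 ± 8.95 and LYPD6 3.97 ± 1.14. At the neuromuscular junction the signal AGRN (111 ± 12.7) and its receptor LRP4 (6.65 ± 1.25) were detected. The muscle genes of the same pathway were low, with RAPSN at 0.370 ± 0.259, DOK7 at 0.369 ± 0.0643 and MUSK at 0.0274 ± 0.0250.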

How the data were processed

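RNA was sequenced from 3 teratoma libraries. The submitters' processing notes name Bowtie2 and the hg19 build. Counting tool, strand setting and filters: not given in the sources used here. The authors deposited, for each of 59443 RefSeq entries, an RPKM value and a raw read count, and other deposited columns hold length and a number that appears to count genome placements. RPKM equals count over length and 1 total per library. Entry counts sum to more than that total, so a read can count for several entries.

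For each symbol the entry with the highest mean RPKM was kept, which left 27307 genes. For 2 receptor genes it was a non-coding entry. Comparisons used log2(RPKM + 1), a scale that shrinks differences of low genes, and spread is the SD over 3 libraries. With 1 group no count model was fitted. The pairs used an exact sign-flip permutation test. Counting intervals (95%, exact Poisson) and the 3-read limit cover counting error only, and p-values measure the spread between these libraries, which may be technical. The call of a difference of at least 2 was tried on simulated counts, with changes planted only in genes above the level of most receptor genes. The sign-flip test was tried on fixed inputs. Changes in lower genes, the counting intervals and the shares were not tried. Named are members that average at least 1 RPKM, each class's leading member, pair members and members that differed by at least 2, and the 3 leading associated genes of each role, with other members given by values or ranges. Some genes are not reported here. Members and lists were chosen with earlier results of these data known. Of 51 associated symbols 50 were measured, since TMEM35 and TMEM35A name 1 gene. Overlapping genes were read from GENCODE and neighbours from RefSeq, both of another build, so positions other than those of RefSeq promoters were not used. Alternatives covered detection level, pseudocount, scaling, entry choice, size of difference, filter and each library left out. Tools were Python 3.11.15, numpy 2.4.6, pandas 2.3.3, scipy 1.17.1 and matplotlib 3.10.9.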

Additional observations from a re-analysis of the deposited data

How the results depend on the processing

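The number of receptor genes detected was 70, 50 and 5 of 95 with detection at 0.1, 0.5 and 5 RPKM, against 68.5%, 58.6% and 31.2% of all genes. It was 56 after rescaling to 1000000 per library, against 62.6% of all genes, compared with 34 as reported (52.7%). Under median-of-ratios scaling or with entries summed or averaged it was 30 to 47, against 52.3% to 56.0% of all genes. With a library left out it was between 35 and 43, against 53.1% to 55.6%. The number differing by at least 2 was 24 and 39 with pseudocounts of 0.1 and 0.01, against 6.24% and 15.2% of all genes. It was 17 after rescaling (3.46% of all genes), 13 with entries summed (2.11%) and 33 with a difference of at least 1 (12.1%), compared with 8 as reported (1.52%). It was between 0 and 8 with a library left out (against 0.205% to 1.14% of all genes). That number was 0 both without teratoma 1 and without teratoma 3. Division by neuron markers, chosen after seeing the data, left 1 (against 18.0% of all genes). Shares of all genes under this division follow largely from its factors. With it 21 of 93 were highest in teratoma 3 (3.84%), compared with 72 as reported (37.5%). Among members of at least 1 RPKM that number was 42 of 49, against 39.9% of all genes at that level. Without teratoma 1 it was 75 of 92, against 46.3%, and without teratoma 2 77 of 92, against 44.7%. These 2 settings were also chosen after seeing the data. GRIN2B minus GRIN2A reversed with entries summed (-0.73) and without teratoma 3 (-0.032, against 0.62 without teratoma 1, the range with a library left out). With a pseudocount of 0.01 RPKM the differences were 6.19 for GRIN2D over GRIN2C, 4.60 for GLRA2 over GLRA1 and -4.28 for CHRNG minus CHRNE, and with entries summed GLRA2 over GLRA1 was 3.02. GRIN2A has 3 entries and GRIN2B 1, so summing entries raises GRIN2A alone. Other reasons for these changes were not tested. Leaving 1 library out of 3 cannot shift a mean by 1 SD of those libraries, so only entry choice could move a leading share. With entries summed 12 of 15 leading shares moved by more than 1 SD, and with entries averaged none did. Of these 12, the shares that moved by over 1.5 times were GRIA1 (60.5%, against 38.5% as reported), GRIN2D of all NMDA subunits (17.3%, against 41.0%), GRM3 (16.1%, against 33.2%) and GABRA3 (33.4%, against 60.4%).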
